A study of Mus musculus with 23 samples.

Results

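The genes described here are 5 of the 754 genes on a mouse myeloid panel, chosen by name because they encode granulocyte growth factors, a receptor for one of them, and a pair of neutrophil markers. They are Csf3 (granulocyte colony-stimulating factor, G-CSF), Csf2 (granulocyte-macrophage colony-stimulating factor, GM-CSF), Csf3r (the G-CSF receptor), S100a8 and Pglyrp1, with NCBI gene IDs 12985, 12981, 12986, 20201 and 21946 in that order. All 5 were found on the panel, and all 5 were above the lower limit of the values in at least 1 lung and so were tested. The panel is a NanoString nCounter assay, which counts colour-coded probes bound to transcripts without amplification, and it was run on total RNA of the left lung of 23 mice. WT mice and Fat-1 mice, which carry a nematode desaturase that makes omega-3 from omega-6 fatty acids, were instilled 14 times with organic dust extract or with the vehicle PBS, called saline here. Airway lavage was taken from every lung before its left lobe was removed, so cells washed out of the airspace are not in the measured tissue. The dust lungs were 4 from WT females, 3 from WT males, 3 from Fat-1 females and 3 from Fat-1 males. The saline lungs were 2 from WT females, 3 from WT males, 2 from Fat-1 females and 3 from Fat-1 males. No age of the mice and no promoter of the Fat-1 transgene is given in the labels.

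G-CSF drives the production of neutrophils in the bone marrow and their release into blood, and it acts through a receptor that neutrophils and their precursors carry. GM-CSF is made by airway epithelium and lymphocytes among other cells, and in the lung it is needed for the maturation of alveolar macrophages. S100a8 pairs with S100a9 to form calprotectin, which fills the cytosol of neutrophils and is also made by monocytes, and Pglyrp1 is a peptidoglycan-binding protein of neutrophil granules.

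Values are normalized counts, which are probe counts multiplied by one scale factor for each lung. Counts under 20 stand at 20, the floor, and so, in the 5 lungs with a factor under 1, do scaled values under 20. A value at the floor thus says only that the level was under the limit of that lung. The factor ran from 0.682 to 4.21, and above a factor of 1 the lowest value visible above the floor scaled with it, up to 84.26. Recovered counts were 110453 to 259493 in the 4 saline lungs of day 1 and 246379 to 812429 in the other 19. Lungs were extracted on a pair of days, 8 dust and 4 saline on day 1 and 5 dust and 6 saline on day 2, and the labels do not say whether that day is of the organ or of the RNA. Group labels disagreed for 4 lungs, and the extract code was followed. In 3 of these, Fat-1 female saline lung 1 and Fat-1 male dust lung 1 of day 1 and Fat-1 male saline lung 2 of day 2, the code says Fat-1 where the title says WT, and for the last of these 3 the title also says female. In the other, WT male saline lung 2 of day 2, the title says a WT female dust lung. Positive control counts put 2 lungs in doubt, WT female saline lung 1 of day 2 at 64880 and Fat-1 female dust lung 2 of day 1 at 7964, against 9844 to 26144 in the 19 lungs with neither doubt nor a saturation message. Fat-1 male dust lung 1 of day 2 and WT male saline lung 1 of day 2 carried a saturation message, with binding densities of 3.05 and 3.12 against 0.28 to 1.32 in the other lungs, and their positive control counts of 5096 and 4351 were the lowest of all.

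The first comparison set all 13 dust lungs against all 10 saline lungs, averaged over genotype and sex. Dust lungs had more RNA of Csf3r, S100a8 and Pglyrp1, with log2 fold changes between 2.21 and 2.62, and slightly more Csf2, while Csf3 lay at the floor in most lungs of both exposures. In limma's test, adjusted over 711 genes, 4 of the 5 genes were called and all 4 were higher in dust. Of all genes tested 53.3% were called, 43.3% higher and 9.99% lower, so that a call by itself sets these genes little apart. The median log2 fold change over all genes was 0.26, and −0.26 after each lung was centred on its median, when 23.9% were called higher and 42.3% lower. In whole-tissue RNA, more cells of a type and more RNA per cell cannot be told apart, for any of the genes below.

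**Figure D1:**
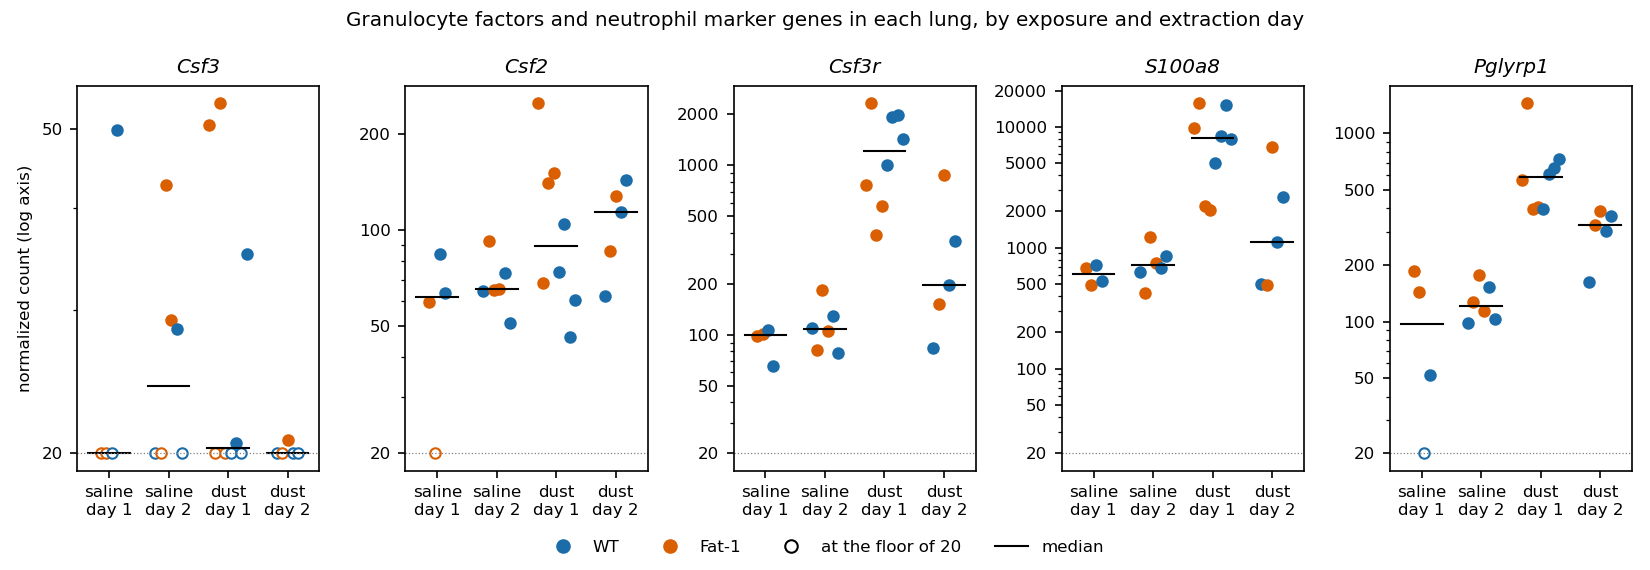
Normalized counts of each gene (log axis) in the 23 lungs, split by exposure and extraction day; each point is a lung, coloured by genotype, open points are at the floor of 20, and the black line is the median. Csf3r, S100a8 and Pglyrp1 of the 8 dust lungs of day 1 lie above every saline lung of that day, whereas Csf3 is at the floor in 14 lungs.

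Csf3, the ligand of the G-CSF receptor, was above the floor in 5 of 13 dust lungs and in 4 of 10 saline lungs, shares between which Fisher's exact test found no difference (two-sided p = 1, adjusted p = 1). In dust its values above the floor were 53.8, 50.6, 35.1, 20.8 and 20.6, and in saline they were 49.9, 42.7, 29.1 and 28.4. The ranges overlap almost entirely, and no lung reached 84.26, the value that every lung could have shown. These levels rest on 21 to 32 probe counts, where counting error alone has an SD of 17.7% to 21.8%. In 8 of the 9 lungs the count was above the highest of that lung's 8 negative control probes, which ran from 7 to 28 counts over all lungs. The fitted log2 fold change was −0.002 (SE 0.22, 95% interval −0.47 to 0.47, adjusted p = 0.993). At this depth a difference in Csf3 between dust and saline was not detectable. After median centring the fitted value was −0.52 (adjusted p = 0.0492), where centring also moves the fixed value of 20 differently in each lung. Over all alternatives the adjusted p ran from 0.0492 to 1, and with a common floor of 84.26 every lung was at the floor.

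Csf2, the GM-CSF ligand, ranged in dust from 46.2 through a median of 105 to 249, and in saline from the floor through a median of 64.8 to 92.2. The exposures overlap, with 7 of 13 dust lungs above the highest saline lung. The highest, Fat-1 female dust lung 1 of day 1, was followed by Fat-1 male dust lung 2 of day 1 at 151. The saline lung at the floor, Fat-1 male saline lung 1 of day 1, was the lung with the factor of 4.21, where any value under 84.26 would have been hidden. The means were 109.9 ± 54.7 in dust (SD, n = 13) and 64.0 ± 19.5 in saline (n = 10), from 26 to 143 probe counts where above the floor. The log2 fold change was 0.69 (SE 0.25, 95% interval 0.17 to 1.22, adjusted p = 0.0266). That call did not hold on the scale of the housekeeping genes (0.56, adjusted p = 0.0663), after median centring (0.18, adjusted p = 0.568), or without the 4 lungs of conflicting labels (0.70, adjusted p = 0.0877). It was also lost without the 2 lungs with a saturation message (0.68, adjusted p = 0.0539) and without either of 2 single lungs, Fat-1 female saline lung 1 of day 1 (0.62, adjusted p = 0.0717) and WT female saline lung 1 of day 2 (0.67, adjusted p = 0.0554).

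Csf3r, the receptor through which neutrophils sense G-CSF, ranged in dust from 84.0 through a median of 767 to 2316, and in saline from 65.8 through 103 to 183. Of the 13 dust lungs 11 were above the highest saline lung, and the other 2, both of day 2, lay within the saline range at 84.0 and 152. The means were 926 ± 756 (n = 13) and 106 ± 32.6 (n = 10). The log2 fold change was 2.62 (SE 0.52, 95% interval 1.53 to 3.70, adjusted p = 4.88e-04). It was 2.10 after median centring and 2.57 with a common floor of 84.26 in every lung, and 2.74 (adjusted p = 0.00629) without the 4 lungs of conflicting labels.

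S100a8 ranged in dust from 491 through a median of 5063 to 15636, and in saline from 423 through 686 to 1219. Here 10 of 13 dust lungs were above the highest saline lung, and 3 lungs of day 2, at 491, 501 and 1108, were not. The means were 5990 ± 5241 (n = 13) and 699.6 ± 223 (n = 10), an SD in dust nearly as large as the mean. The log2 fold change was 2.49 (SE 0.60, 95% interval 1.23 to 3.74, adjusted p = 0.00209), 1.97 after median centring, and 2.62 (adjusted p = 0.0167) without the lungs of conflicting labels.

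Pglyrp1 had the narrowest interval among the called genes other than Csf2. It ranged in dust from 163 through a median of 399 to 1442, and in saline from the floor through 121 to 187. Only WT female dust lung 2 of day 2, at 163, was not above the highest saline lung, and it was also 1 of the lungs within the saline range for Csf3r and S100a8. The saline lung at the floor was WT female saline lung 1 of day 1, with a factor of 3.24. The means were 519 ± 319 (n = 13) and 118 ± 52.4 (n = 10), and the log2 fold change was 2.21 (SE 0.33, 95% interval 1.52 to 2.89, adjusted p = 4.96e-05). It was 1.69 after median centring, 1.90 with the common floor and 2.27 (adjusted p = 0.00201) without the lungs of conflicting labels. No gene of the 5 had every dust lung above every saline lung, which 3.52% of all genes did.

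Without the 2 lungs in doubt and the 2 with a saturation message, Csf3r was at 2.34 (adjusted p = 0.00836), S100a8 at 2.15 (adjusted p = 0.0264), Pglyrp1 at 2.47 (adjusted p = 9.97e-05), Csf2 at 0.75 (adjusted p = 0.0593) and Csf3 at 0.11 (adjusted p = 0.76). The calls of Csf3r, S100a8 and Pglyrp1 held without those lungs.

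The promoters of the 3 genes that rose most are shown because their levels also moved together between lungs, as given further on. They are the 250 bases before the start site in RefSeq's GRCm38.p6 tables, to which 4 of the 5 genes, all but Csf3, were matched. Capitals mark matches on either strand to GAGGAA (a core of the motif of PU.1, a factor of myeloid cells), to TATAAA (the TATA box), and to the NF-kB motif. S100a8 lies at chr3:90668821-90669070 on the plus strand.
S100a8: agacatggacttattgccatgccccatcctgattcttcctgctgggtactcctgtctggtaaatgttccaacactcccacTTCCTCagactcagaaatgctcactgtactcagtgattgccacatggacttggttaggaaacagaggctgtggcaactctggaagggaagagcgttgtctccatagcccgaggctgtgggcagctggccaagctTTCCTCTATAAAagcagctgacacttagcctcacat
The Pglyrp1 window is chr7:18884440-18884689 and the Csf3r window chr4:126024409-126024658, both on the plus strand.
Pglyrp1: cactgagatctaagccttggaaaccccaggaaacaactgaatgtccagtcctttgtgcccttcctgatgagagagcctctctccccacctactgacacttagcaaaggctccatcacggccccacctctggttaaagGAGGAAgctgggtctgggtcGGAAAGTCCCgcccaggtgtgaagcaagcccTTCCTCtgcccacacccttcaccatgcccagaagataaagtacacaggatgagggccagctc
Csf3r: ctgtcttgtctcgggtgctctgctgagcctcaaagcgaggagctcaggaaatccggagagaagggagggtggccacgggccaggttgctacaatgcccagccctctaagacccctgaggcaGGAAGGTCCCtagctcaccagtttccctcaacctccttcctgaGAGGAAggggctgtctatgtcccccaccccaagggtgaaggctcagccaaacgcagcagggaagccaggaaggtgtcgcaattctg

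S100a8 held 2 matches to GAGGAA, read as TTCCTC, and the nearer one, 36 to 31 bases before the start, runs directly into the TATA box at 30 to 25 without overlapping it. Pglyrp1 also held 2, and Csf3r held 1, with an NF-kB match in each of these 2 windows. The Csf2 window, on the minus strand of chromosome 11, held neither of these but 1 match to TTGCNNAA, a C/EBP motif, and no window of the 4 held TGANTCA, the AP-1 motif. Among all 32851 windows of this length, GAGGAA is found in 23.3%, TATAAA in 12.4%, the NF-kB motif in 7.25%, TTGCNNAA in 9.56% and TGANTCA in 6.75%. The matches describe letters, and no binding was measured.

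The dust response was then taken within each genotype. In WT lungs 3 of the 5 genes were called, all higher, against 35.3% of all genes called and 30.7% higher. In Fat-1 lungs 4 of 5 were called higher, against 38.1% called and 32.2% higher. Csf3r rose by 2.71 on the log2 scale in WT (SE 0.72, adjusted p = 0.00935) and by 2.53 in Fat-1 (SE 0.74, adjusted p = 0.0152). S100a8 rose by 2.47 (adjusted p = 0.0303) and 2.50 (adjusted p = 0.0301), and Pglyrp1 by 2.65 (adjusted p = 8.76e-04) and 1.76 (adjusted p = 0.00932). The WT value of Pglyrp1 depends on WT female saline lung 1 of day 1, at the floor, where any value under 64.82 would have been hidden. Without that lung it was 1.93, and without WT female saline lung 1 of day 2 it was 3.37. For Pglyrp1 the groups did not overlap within a genotype as coded. All 7 WT dust lungs were above 154, the highest WT saline lung, and all 6 Fat-1 dust lungs were above 187. Of all genes, 6.75% had such a gap in WT lungs and 19% in Fat-1 lungs. The gap in WT lungs depends on the code, since the saline lung at 187, Fat-1 female saline lung 1 of day 1, is WT by its title. Counted as WT, it would lie above WT female dust lung 2 of day 2, at 163. Several of these calls turn on single lungs. In WT the call of Csf3r was lost without WT female saline lung 1 of day 1 (2.64, adjusted p = 0.0503), which left 1 gene called. That of S100a8 was lost without any 1 of 8 lungs (2.04 to 2.49, adjusted p from 0.0538 to 0.0896), namely WT female dust lungs 1 and 2, WT male dust lungs 1 and 2, WT female saline lung 1 and WT male saline lung 1 of day 1, and WT female saline lung 1 and WT male saline lung 2 of day 2. In Fat-1 the call of Csf3r was lost without Fat-1 female saline lung 1 of day 2 (2.46, adjusted p = 0.0516). That of S100a8 was lost without any 1 of 7 lungs (2.03 to 2.68, adjusted p from 0.05 to 0.103), namely Fat-1 female dust lungs 1 and 2, Fat-1 female saline lung 1 and Fat-1 male saline lung 1 of day 1, and Fat-1 female saline lung 1, Fat-1 male dust lung 1 and Fat-1 male saline lung 2 of day 2. With 1 lung left out the number of the 5 genes called was 1 to 3 in WT and 2 to 4 in Fat-1, and Pglyrp1 kept its call in both genotypes. Without the 4 lungs of conflicting labels the calls within Fat-1 lungs were lost, at 2.68 (adjusted p = 0.0931) for Csf3r, 2.79 (adjusted p = 0.126) for S100a8 and 1.82 (adjusted p = 0.0778) for Pglyrp1, and that of S100a8 in WT lungs as well (2.45, adjusted p = 0.0929). Without the 2 lungs in doubt, Csf3r in Fat-1 lungs was at 2.07 (adjusted p = 0.0513) and S100a8 at 2.03 (adjusted p = 0.0985), and S100a8 in WT lungs at 2.45 (adjusted p = 0.0551).

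Csf2 was the gene whose call differed between the genotypes. In WT the 5 saline lungs were at 84.3, 73.7, 64.5, 63.6 and 51.2, and the 7 dust lungs ranged from 46.2 through 74.0 to 144. In Fat-1 the saline lungs were at 92.2, 65.6, 65.0, 59.7 and the floor, and the 6 dust lungs ranged from 68.5 through 134 to 249. In WT the dust lungs spread to both sides of the saline lungs, whereas in Fat-1 4 of 6 were above every saline lung. On the log2 scale dust exceeded saline by 0.27 in WT (SE 0.35, adjusted p = 0.591) and 1.12 in Fat-1 (SE 0.36, adjusted p = 0.0216). The test of that difference itself gave 0.86 (SE 0.50, 95% interval −0.19 to 1.91, adjusted p = 0.999). Within Fat-1 lungs the call of Csf2 was lost on centring each lung (0.62, adjusted p = 0.187), with the common floor (0.59, adjusted p = 0.058) and without the lungs of conflicting labels (1.10, adjusted p = 0.127). It was also lost without any 1 of Fat-1 female dust lung 1, Fat-1 female saline lung 1 and Fat-1 male saline lung 1 of day 1 (0.84 to 0.97, adjusted p from 0.0504 to 0.0942).

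No gene of the 5, and 0% of all 711, was called in the difference of the dust response between genotypes. The 95% intervals of that difference were −2.35 to 1.99 for Csf3r, −2.48 to 2.54 for S100a8, −2.26 to 0.48 for Pglyrp1 and −0.55 to 1.33 for Csf3, so that differences of several fold in either direction were within reach of the error for Csf3r and S100a8. At an unadjusted limma p under 0.05 the difference passed for 0 of the 5 and for 21 of the 711 genes. Between Fat-1 and WT dust lungs, also with 0% of all genes called and 22 at an unadjusted p under 0.05, Csf2 was at 0.60 (SE 0.33, adjusted p = 0.979). For the same contrast limma with array quality weights gave 1.12 (adjusted p = 0.0127), and over all alternatives Csf2 ran from −0.18 to 1.12 with adjusted p from 0.0127 to 1. Csf3r, S100a8 and Pglyrp1 were at −0.08, −0.05 and 0.24 there. Between females and males the dust response of the 5 genes was not called to differ either, with 0% of all genes called and 14 at an unadjusted p under 0.05, and with Csf2 lowest at −0.94 for females minus males (SE 0.50, adjusted p = 0.998).

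In saline lungs the genotypes were set side by side for Pglyrp1, which had the largest difference among the 5 genes there. The 5 Fat-1 saline lungs were at 187, 177, 143, 127 and 114, and the 5 WT saline lungs at 154, 103, 98.5, 52.2 and the floor. These groups follow the extract code. By their titles the Fat-1 lungs at 187 and 114 are WT, and the WT lung at 98.5 is a dust lung. The log2 difference was 1.13 (SE 0.49, 95% interval 0.09 to 2.17), with an unadjusted limma p of 0.0352 and an adjusted p of 1, and 0% of all genes were called, with 10 at an unadjusted p under 0.05. It rests on the lung at the floor and its neighbour at 52.2, both of day 1, since among day 2 lungs alone the difference was 0.11 and with the common floor it was 0.51. Without the 2 lungs in doubt, of which 1 is the WT lung at 154, the value was 1.85. That fit leaves only the lung at the floor in the WT female saline group, where any value under 64.82 would have been hidden. Without the lung at the floor the value was 0.41, and over all alternatives it ran from 0.11 to 2.30.

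**Figure D2:**
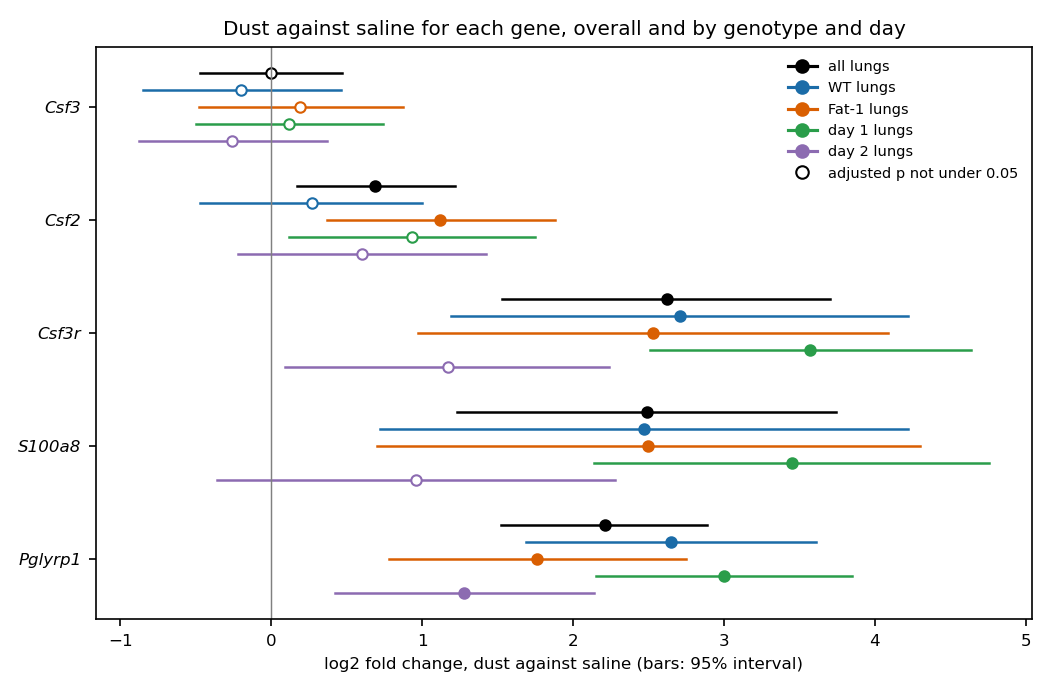
Log2 fold change of dust against saline for each gene with its 95% interval, over all lungs, in each genotype and on each extraction day; filled points passed an adjusted p of 0.05 and open points did not. Csf3r, S100a8 and Pglyrp1 lie further right on day 1 (3.57, 3.45 and 3.00) than on day 2 (1.17, 0.96 and 1.28), and the WT and Fat-1 intervals of each gene overlap.

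The genes were next compared by extraction day. On day 1, Csf3r, S100a8 and Pglyrp1 were called higher in dust, 3 of the 5 genes against 53.2% of all genes called and 41.6% higher. On day 2 only Pglyrp1 was called, 1 of 5 against 13.2% called and 12.8% higher. The same 3 genes had all 8 dust lungs of day 1 above all 4 saline lungs of that day, as did 26.9% of all genes, and none of the 5 had such a gap on day 2, where 5.77% of all genes did.

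For Csf3r the 8 dust lungs of day 1 ranged from 387 through 1216.5 to 2316, and the 5 of day 2 were at 878, 356, 197, 152 and 84.0. The saline lungs of day 1 were at 107, 101, 98.2 and 65.8, and the 6 of day 2 ranged from 78.5 through 108 to 183. Saline lungs of the 2 days overlapped, while 4 of the 5 dust lungs of day 2 were below every dust lung of day 1. Dust exceeded saline by 3.57 on the log2 scale on day 1 (SE 0.51, adjusted p = 1.30e-05) and 1.17 on day 2 (SE 0.52, adjusted p = 0.147). Among dust lungs alone, day 1 was higher than day 2 by 2.18 (SE 0.48, adjusted p = 0.0117).

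For S100a8 the dust lungs of day 1 ranged from 2041 through 8140.1 to 15636, and those of day 2 were at 6823, 2617, 1108, 501 and 491. The saline lungs of day 1 were at 723, 688, 536 and 492.9, and those of day 2 ranged from 423 through 717 to 1219. On day 2, 3 of 5 dust lungs were no higher than the highest saline lung. The dust response was 3.45 on day 1 (SE 0.63, adjusted p = 1.20e-04) and 0.96 on day 2 (SE 0.63, adjusted p = 0.37), and day 1 exceeded day 2 among dust lungs by 2.26 (SE 0.59, adjusted p = 0.0191).

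For Pglyrp1 the dust lungs of day 1 ranged from 395 through 587 to 1442, and those of day 2 were at 388, 366, 326, 303 and 163. The saline lungs of day 1 were at 187, 143, 52.2 and the floor, and those of day 2 ranged from 98.5 through 121 to 177. Every dust lung of day 1 was above every dust lung of day 2, a separation that 1.27% of all genes had, though the nearest lungs differed only between 395 and 388. The dust response was 3.00 on day 1 (SE 0.41, adjusted p = 7.70e-06) and 1.28 on day 2 (SE 0.41, adjusted p = 0.0459). The day 2 call was lost under several alternatives, among them median centring (0.95, adjusted p = 0.097), the housekeeping scale (1.17, adjusted p = 0.074) and the lungs without conflicting labels (1.19, adjusted p = 0.114). It was lost without any 1 of 14 of the 23 lungs (1.11 to 1.34, adjusted p from 0.0523 to 0.167), with the highest p without Fat-1 male dust lung 1 of day 2. With the common floor day 1 was at 2.32. Among dust lungs day 1 exceeded day 2 by 0.94 (SE 0.38, adjusted p = 0.0884), and by 0.97 (adjusted p = 0.032) with the common floor.

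Between the days, then, 2 of the 5 genes were called among dust lungs, Csf3r and S100a8, both higher on day 1, against 15.2% of all genes called and 13.2% higher. Among saline lungs 0 of 5 were called, against 0.141%, and 51 of the 711 genes had an unadjusted p under 0.05. The test of whether the dust response itself differed by day called 0 of 5, against 1.69% of all genes, with 3 of the 5 and 153 of the 711 genes at an unadjusted limma p under 0.05. Its values were 2.41 for Csf3r (SE 0.73, adjusted p = 0.0968), 2.49 for S100a8 (SE 0.89, adjusted p = 0.128) and 1.72 for Pglyrp1 (SE 0.58, adjusted p = 0.124). Without the 2 lungs with a saturation message it was 3.16 for Csf3r (adjusted p = 0.00605) and 3.28 for S100a8 (adjusted p = 0.0174), and Fat-1 male dust lung 1 of day 2, which is 1 of them, is the highest dust lung of its day for both. Without that message's lungs the day 2 response was 0.41 for Csf3r (adjusted p = 0.865) and 0.17 for S100a8 (adjusted p = 0.972), and 1.27 for Pglyrp1 (adjusted p = 0.218). Without the 4 lungs of conflicting labels the difference by day was 2.36 for Pglyrp1 (adjusted p = 0.0325). Over all alternatives the adjusted p of this difference ran from 0.00414 to 0.234 for Csf3r, from 0.0103 to 0.298 for S100a8 and from 0.0325 to 0.298 for Pglyrp1. The calls among dust lungs turn on single lungs too. That of Csf3r was lost without WT female dust lung 2 (1.82, adjusted p = 0.0564) or Fat-1 female dust lung 1 (2.02, adjusted p = 0.0514) of day 2. That of S100a8 was lost without either of these (1.90, adjusted p = 0.076, and 1.87, adjusted p = 0.0835), without WT female dust lung 1 of day 2 (2.19, adjusted p = 0.051) or without WT female dust lung 2 of day 1 (2.03, adjusted p = 0.0515), and had an adjusted p of 0.05 without the 2 lungs in doubt. Pglyrp1 was called among dust lungs without WT female saline lung 1 of day 1 (0.98, adjusted p = 0.0351). With 1 lung left out the number called ran from 0 to 3.

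For Csf2 day 1 and day 2 dust lungs differed by −0.09 (adjusted p = 0.884). Its dust lungs of day 1 ranged from 46.2 through 89.4 to 249, and those of day 2 were at 144, 128, 114, 86.0 and 62.1. The day 2 values lie within the range of day 1, and both days overlap in part with saline, whose lungs of day 1 were at 84.3, 63.6, 59.7 and the floor and whose lungs of day 2 ranged from 51.2 through 65.3 to 92.2. The dust response was 0.93 on day 1 (SE 0.39, adjusted p = 0.0502) and 0.60 on day 2 (SE 0.39, adjusted p = 0.363). The day 1 value stood at the threshold and moved to both sides of it. It was called with the replicate block (1.33, adjusted p = 0.0178), the cartridge block (1.01, adjusted p = 0.0448), array weights (1.00, adjusted p = 0.0407) and without the 2 lungs in doubt (1.03, adjusted p = 0.0428), and without any 1 of 6 lungs (0.93 to 1.25, adjusted p from 0.018 to 0.0488). It stood at 0.43 with the common floor (adjusted p = 0.129). Median centring put it at 0.31 (adjusted p = 0.514), and it was 0.41 without Fat-1 male saline lung 1 of day 1, the lung at the floor (adjusted p = 0.376). Csf3 was above the floor in 4 of 8 dust lungs of day 1 and 1 of 5 of day 2.

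Day goes together with other measures. Of the day 1 lungs 10 were on 1 cartridge and 2 on the other, and of the day 2 lungs 2 and 9. With the cartridge as a block the difference between dust lungs of the 2 days was 2.65 for Csf3r (adjusted p = 0.00387), 2.80 for S100a8 (adjusted p = 0.00737) and 1.24 for Pglyrp1 (adjusted p = 0.038). In Fat-1 lungs each day was on its own cartridge, and only a few WT lungs break that link. The block therefore cannot separate day from cartridge. Recovered counts in dust lungs were 276331 to 812429 on day 1 and 264771 to 795975 on day 2. The number of genes at the floor was 81 to 149 in dust lungs of day 1, 81 to 125 in those of day 2, 136 to 232 in saline lungs of day 1 and 66 to 140 in those of day 2. Whether the cartridge or anything else that goes with the day accounts for the difference was not tested.

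The levels of Csf3r, S100a8 and Pglyrp1 followed each other from lung to lung in dust. Over the 13 dust lungs, on log2 values, Pearson's r was 0.96 for Csf3r and S100a8 (Spearman's rho 0.91, permutation p = 2e-05, adjusted p = 2.00e-04), and 0.92 without the 2 lungs farthest from the median. It was 0.88 for Csf3r and Pglyrp1 (rho 0.92, permutation p = 4.00e-05, adjusted p = 2.00e-04; 0.81 without the 2) and 0.84 for S100a8 and Pglyrp1 (rho 0.86, permutation p = 1.00e-04, adjusted p = 3.33e-04; 0.80 without the 2). The adjustment is over all 10 pairs of the 5 genes. After median centring, which removes what a shared scale factor adds, the same values were 0.94, 0.77 and 0.72.

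Part of this relation is the difference between days. Within the 8 dust lungs of day 1, r was 0.87 (exact permutation p = 0.0102), 0.77 (exact permutation p = 0.00858) and 0.78 (exact permutation p = 0.00694) for the same pairs, each with an adjusted p of 0.0339. Without the 2 farthest lungs of day 1 these were 0.60 (exact permutation p = 0.214), 0.68 (p = 0.0833) and 0.76 (p = 0.0639). Within the day the relations of Csf3r thus rest in part on those lungs. For S100a8 and Pglyrp1 r was nearly the same, and its p was larger with fewer lungs. The 5 dust lungs of day 2 are too few for a correlation. Over the 10 saline lungs, Csf3r and S100a8 had an r of 0.66 (permutation p = 0.0399, adjusted p = 0.399), which was 0.18 without the 2 farthest lungs.

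No relation of Csf2 to these genes was detected across dust lungs, with r of −0.17 with Csf3r, −0.07 with S100a8 and −0.14 with Pglyrp1 (rho −0.35, −0.19 and −0.25, permutation p = 0.58, 0.819 and 0.647, adjusted p = 0.809, 0.854 and 0.809). Without the 2 farthest lungs these were −0.09, −0.09 and −0.19. After median centring they were −0.43, −0.32 and −0.29 (permutation p = 0.137, 0.277 and 0.35). Within day 1, without centring, they were −0.70, −0.47 and −0.43 (exact permutation p = 0.0649, 0.245 and 0.274), none of which passed. Spearman's rho of Csf2 and Csf3r within day 1 was −0.74 (exact permutation p = 0.0458, adjusted p = 0.115). The 3 dust lungs with the highest S100a8, at 15636, 15217 and 9874, had Csf2 of 68.5, 46.2 and 249.

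**Figure D3:**
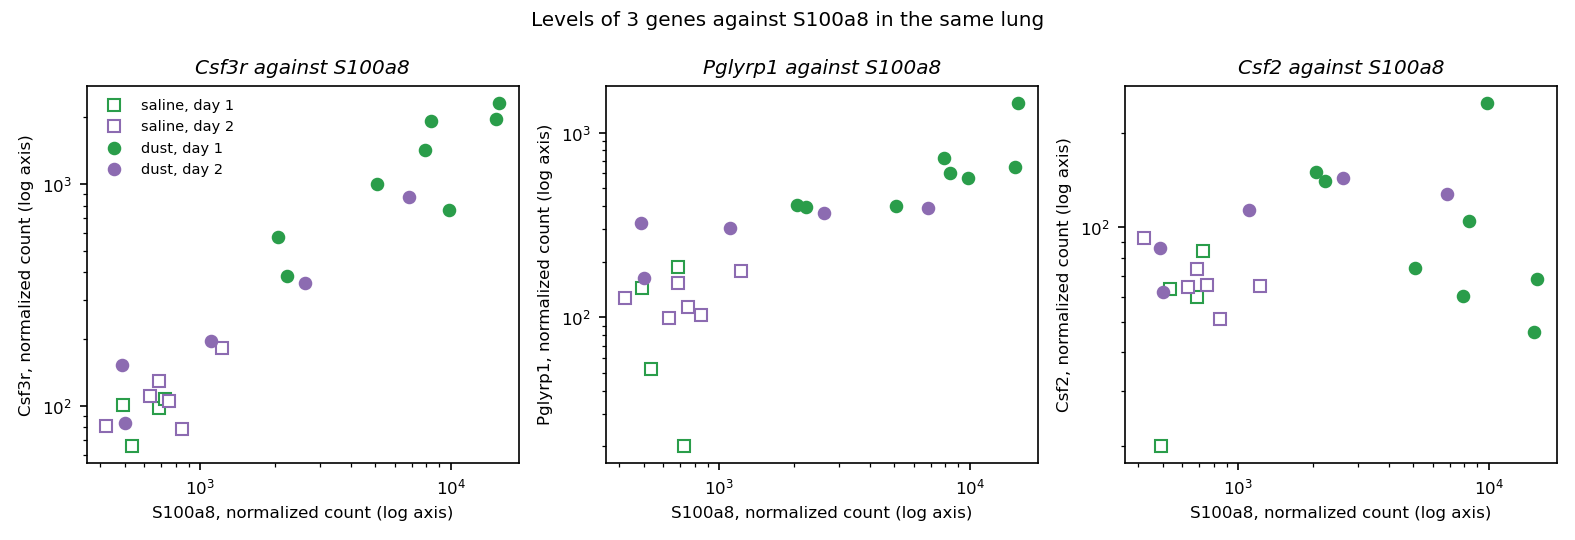
Normalized counts of Csf3r, Pglyrp1 and Csf2 against S100a8 in the same lung (both axes log); filled circles are dust, open squares saline, green day 1 and purple day 2. Csf3r follows S100a8 closely over the dust lungs, Pglyrp1 stays between 303 and 388 in 4 of the 5 dust lungs of day 2 while S100a8 runs from 491 to 6823 there, and Csf2 shows no such order.

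The ratio of 2 genes within a lung does not depend on the lung's scale factor. The log2 ratio of Csf3r to S100a8 was −2.56 ± 0.52 in dust (SD, n = 13) and −2.72 ± 0.35 in saline (n = 10), a difference of 0.16 (permutation p = 0.417), so that no difference between their rises was detected. Among dust lungs it was at −2.58 ± 0.57 on day 1 and −2.52 ± 0.50 on day 2 (exact permutation p = 0.856). For Pglyrp1 the log2 ratio to Csf3r was −0.89 ± 0.60 on day 1 (n = 8) and 0.31 ± 0.92 on day 2 (n = 5), a difference of −1.20 (exact permutation p = 0.0218, adjusted p = 0.0653 over 3 ratios). Its ratio to S100a8 was −3.48 ± 0.75 on day 1 and −2.21 ± 1.34 on day 2 (exact permutation p = 0.0575, adjusted p = 0.0862). Fat-1 female dust lung 1 of day 2 shows this most plainly, with Pglyrp1 at 326, above every saline lung, and S100a8 at 491, within the saline range. These ratios were compared after the levels had been seen, and their differences did not pass after adjustment.

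S100a8 can be set against S100a9, its partner in calprotectin, which was named after its values were seen. S100a9 was at 7772 ± 6445 in dust and 1211 ± 314 in saline, which limma put at 2.18 (SE 0.53, adjusted p = 0.00234). The log2 ratio of S100a8 to S100a9 within a lung was −0.51 ± 0.43 in dust (SD, n = 13) and −0.81 ± 0.19 in saline (n = 10). The difference was 0.30 (permutation p = 0.0213, unadjusted). It was 0.46 among day 1 lungs (permutation p = 0.0283) and 0.07 among day 2 lungs (permutation p = 0.589). The ratio ran from −1.15 to −0.36 in 22 of the 23 lungs. In Fat-1 female dust lung 2 of day 1 it was 0.74, with S100a8 at 15636 and S100a9 at 9346. Leaving that lung out put the difference between dust and saline in this ratio at 0.20 (permutation p = 0.0365). That lung is also the highest of all for Csf3r, S100a8 and Pglyrp1, and without it the correlations above were 0.95, 0.90 and 0.86.

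Among 555 genes that were above the floor in all 13 dust lungs, those most like each of the 5 genes other than Csf3, which was at the floor in 8 of these lungs, were taken by Pearson's r, as a description with no test. For Csf3r they were Birc3 at 0.971, Clec5a at 0.964 and C5ar1, the complement C5a receptor, at 0.964. After median centring Birc3 was at 0.655, Clec5a at 0.953 and C5ar1 at 0.939. For S100a8 they were S100a9 at 0.971, Ccl19 at 0.961 and Csf3r at 0.955. For Pglyrp1 they were Tnfaip8, Sema4a and Furin at 0.945, 0.942 and 0.937. Csf2 had no gene above 0.784, with Hivep1 at that value, Vegfc at 0.772 and Cldn1 at 0.752. The lungs share their extraction day and scale factor, which enter all of these values. In saline lungs S100a8 and S100a9 were still at 0.896, whereas Csf3r and C5ar1 were at 0.072.

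Other genes of the growth factor pathway were taken from a list. The lists below are read beside the share of all genes, 43.3% called higher and 9.99% lower, or 23.9% and 42.3% after median centring. Of 11 tested growth factors, receptors and signalling genes 7 rose and 1 fell in dust, with a median log2 fold change of 0.41. After median centring the list's median was −0.10, with 4 called higher and 3 lower, and 1 of those 3, Il5ra, is at the floor in 21 of 23 lungs. Csf2ra, the alpha chain of the GM-CSF receptor, rose from 112 ± 35.6 to 304 ± 114 (log2 fold change 1.40, SE 0.22, adjusted p = 6.75e-05). Csf1r, the receptor of the macrophage growth factor, rose by 0.96 and Socs3, a feedback inhibitor of cytokine receptors, by 1.61. Kitl, the stem cell factor, fell by 0.55.

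A further list held cytokines known to induce Csf3 and Csf2 in other cells, and a receptor chain for such a cytokine. Of 6 tested 5 rose and 0 fell. Their median was 1.73, and with the common floor 4 rose. On day 2 alone 0 of the 6 were called, against 12.8% of all genes called higher. Il1b, interleukin 1 beta, was then at 1.40 (adjusted p = 0.115), Il1a at 1.06 (adjusted p = 0.103) and Tnf at 1.14 (adjusted p = 0.17). Over both days Il1b rose by 2.95 (SE 0.56, adjusted p = 3.68e-04), Il1a by 2.31, Tnf by 2.28 and Il17ra, an interleukin 17 receptor chain, by 0.94. Saline lungs at the floor were 3 for Il1a and 2 for Tnf, and with the common floor these 2 genes were at 1.54 and 1.38. Of 4 tested chemokines that attract neutrophils all 4 rose, with a median of 2.38. Cxcl3 rose by 4.11, Cxcl2 by 2.68, Cxcl1 by 2.09 and Cxcl5 by 1.94, and with the common floor these were 2.89, 1.58, 1.38 and 0.58. On day 2 alone 2 of the 4 were called higher, Cxcl3 (2.81, adjusted p = 0.00245) and Cxcl5 (1.29, adjusted p = 0.0459). Cxcl2 (1.15, adjusted p = 0.097) and Cxcl1 (0.86, adjusted p = 0.312) were not called on that day.

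The label of neutrophil marker was checked against a list of neutrophil genes. Of 16 tested 11 rose, 0 fell and the median was 1.26, and after median centring 11 rose and 4 fell. Of those 4, Mpo, Ctsg and Camp were at the floor in 22, 22 and 18 of 23 lungs, so that their values after centring are of the moved floor. Cxcr2, the chemokine receptor of neutrophils, rose from 52.6 ± 33.9 to 463 ± 354 (2.78, SE 0.64, adjusted p = 0.00149), with 4.49 on day 1 and 0.78 on day 2 (adjusted p = 0.517). Of the 4 saline lungs of day 1, 3 were at the floor for Cxcr2, and with the common floor the value over both days was 2.01. Mmp8, neutrophil collagenase, rose by 1.85, with 2.76 on day 1 and 0.90 on day 2 (adjusted p = 0.238), and was at 0.88 with the common floor. Fpr2, Fpr1, Itgam and Itgb2, which monocytes and macrophages carry too, rose by 2.47, 1.08, 2.09 and 1.44. Several genes that define neutrophils or their precursors were hardly seen. Elane and Cxcr1 were at the floor in all 23 lungs, Ly6g was above it in 4 of 13 dust lungs and 0 of 10 saline lungs, and Mpo, Ctsg and Camp were at the floor in 12, 13 and 11 of 13 dust lungs. In a narrower list of 7 tested neutrophil genes, 3 rose (S100a9, Cxcr2 and Mmp8) and 0 fell, and the other 4 are Ly6g, Mpo, Camp and Ctsg, which were at the floor in most lungs and have no measured change.

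Markers of other cells moved with the exposure too. Of 15 tested genes of monocytes and macrophages 13 were called higher and 0 lower, with a median of 1.70. Those with the smallest p were Itgax, C1qa, Marco and C1qb, at 1.86, 1.79, 1.70 and 2.20. Their summed level ran from 10709 to 27444 in dust and from 8824 to 12323 in saline, and that of the neutrophil genes ran from 2957 to 31518 in dust and from 2525 to 3812 in saline. A large part of the neutrophil sum is S100a9, which alone ran from 708 to 22593 in dust and from 847 to 1794 in saline. None of the 15 macrophage genes was called between the dust lungs of day 1 and day 2. Of the 16 neutrophil genes 8 were called higher on day 1, against 15.2% of all genes called and 13.2% higher. The test of whether the dust response differed by day called 1 of the 16 neutrophil genes and 0 of the 15 macrophage genes, against 1.69% of all genes. The difference between the lists was not tested. The median dust response of the macrophage genes was 1.97 on day 1 and 1.22 on day 2, and that of the neutrophil genes 1.51 and 0.78. The neutrophil median is lowered by Ly6g, Mpo, Camp and Ctsg, which were at the floor in 19, 22, 18 and 22 lungs. The medians therefore do not show which list responded more. S100a8 and Csf3r are also expressed by monocytes, and the part of these cells in their levels was not tested. Of 8 genes of eosinophils, mast cells and basophils 2 rose (Ear6 by 0.63 and Siglecf by 0.62, and 0.11 and 0.10 after median centring) and 1 fell (Gata2 by 0.82), with Epx and Cpa3 at the floor in every lung, and their summed level was 992 to 1471 in dust and 891 to 1537 in saline. Of 4 lymphocyte genes 0 rose and Gzma fell by 0.82, with sums of 315 to 1195 in dust and 481 to 976 in saline. Of 6 lung structure genes 1 rose (Lamp3 by 0.29) and 4 fell, with Cdh5, Angpt1, Tek and Thbd lower by 0.58 to 1.21, and sums of 10029 to 18719 in dust and 14387 to 20332 in saline.

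**Figure D4:**
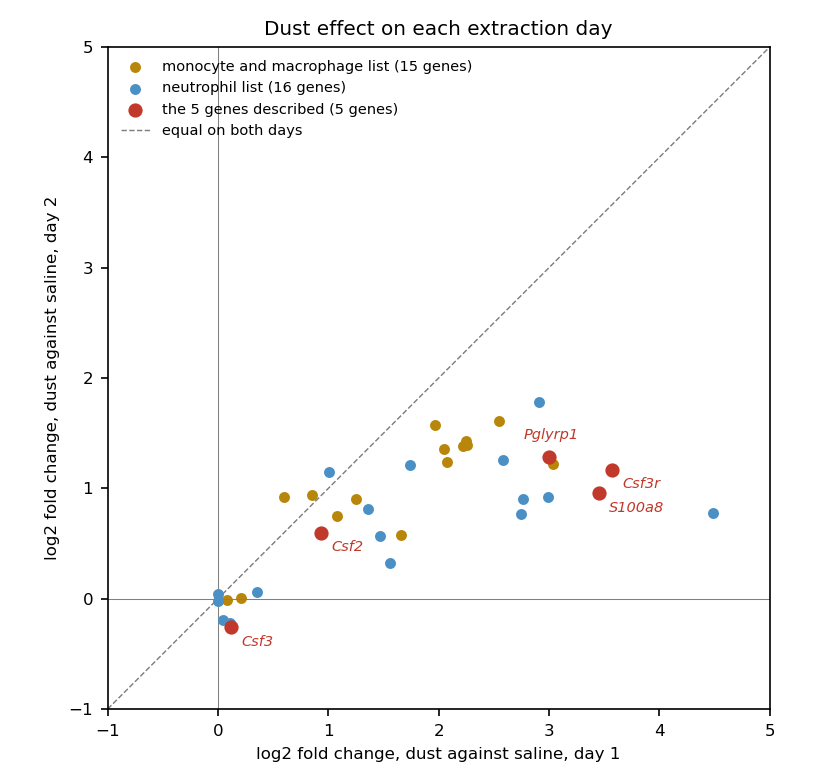
Log2 fold change of dust against saline on day 1 (horizontal) and on day 2 (vertical) for the 5 genes described, for 16 neutrophil genes and for 15 monocyte and macrophage genes; each point is a gene and the dashed line marks equal changes. Csf3r, S100a8 and Pglyrp1 lie below the line at 3.57, 3.45 and 3.00 on day 1 with 1.17, 0.96 and 1.28 on day 2, and the macrophage list has a median of 1.97 on day 1 and 1.22 on day 2.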

How the data were processed

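RNA of 23 left lungs was counted on a myeloid panel of 754 genes. The authors deposited a normalized signal per gene and lung, which the values show to be probe counts under one scale factor per lung, with counts under 20, and scaled values under 20, standing at 20. The software and the genes behind that factor are not stated. Of the values above the floor, 100.0% were whole multiples of their lung's step (tolerance 0.1 steps). No count model was fitted, since low counts are hidden.

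Lungs were grouped by the extract code into 8 groups of genotype, sex and exposure. Tests used limma 3.58.1 (R 4.3.3) on log2 of the value plus a pseudocount of 1, two-sided, with Benjamini-Hochberg adjustment over the 711 genes above the floor in at least 1 lung and a threshold of 0.05. Exposure and genotype were compared in a group-means model, and the days in a model of exposure by day cells with genotype and sex; all 23 lungs entered both. Each lung is its own sample in the labels, and p-values measure the spread between these lungs. The code's numbers were checked as pairs: 24 of 65 same-day, same-number pairs had a correlation of deviations over 0.1 (median −0.01), so they were not taken as pairs. Permutation tests drew 100000 resamples or were exact, and Fisher's exact test compared lungs above the floor. Python 3.11.15, numpy 2.4.6, pandas 2.3.3, scipy 1.17.1 and matplotlib 3.10.9 were used. The fit was tested on simulated data.

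The members, the gene lists and the tests were chosen with earlier results of these data known. Named besides the 5 genes are up to 4 called genes of each list with the smallest p, and the 3 genes most like each member; S100a9 as partner of S100a8, and the genes at or near the floor in the neutrophil list, were named after their values were seen. Counting intervals and SDs cover counting error only. Promoter sequences are from RefSeq, GRCm38.p6.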

Additional observations from a re-analysis of the deposited data

Results flagged for a closer look

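In 50 groups of 4 to 10 lungs, 10 for each of the 5 genes, the highest or lowest lung stood apart by Dixon's criterion 8 times. Chance gives about 1 in 20 for separate groups without tied values. These groups share lungs and some hold values tied at the floor, so that rate does not apply to the 8. Of the 8, 3 concern Csf3 where the rest of the group was at or near the floor, namely 35.15 in WT male dust lung 2 of day 1 among WT dust lungs, 20.76 in Fat-1 male dust lung 1 of day 2 among dust lungs of that day, and 49.94 in WT male saline lung 1 of day 1 among saline lungs of that day. Csf2 was at the floor of 20 in Fat-1 male saline lung 1 of day 1, which stood apart among all saline lungs and among Fat-1 saline lungs, where the nearest values were 51.2 and 59.7. Pglyrp1 was at 1441.9 in Fat-1 female dust lung 2 of day 1, apart from the Fat-1 dust lungs and from the dust lungs of day 1, with the nearest at 567 and 728. Pglyrp1 was lowest at 162.62 in WT female dust lung 2 of day 2, with the nearest dust lung of that day at 303.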

How the results depend on the processing

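Csf3r, S100a8 and Pglyrp1 kept their direction and their call in dust against saline under every alternative in which they were tested except the day 2 lungs alone, and Csf2 kept its direction. Among the 11 lungs of day 2 alone the values were 1.37 for Csf3r, 1.25 for S100a8, 1.29 for Pglyrp1 and 0.59 for Csf2, and with the common floor as well 1.34, 1.25, 1.29 and 0.37, with 0 of the 5 genes called in either; the fit has fewer lungs. For Csf2 the call was also lost among day 1 lungs alone (0.93, or 0.43 with the common floor), on the housekeeping scale (0.56), after median centring (0.18), and without the lungs of conflicting labels (0.70), of saturation (0.68) or of doubt or saturation (0.75). Csf3 was at −0.52 after median centring. Restricted to genes above the floor in every lung, 2 of the 5 genes were tested and called, since the other 3 were at the floor somewhere. Leaving out each lung in turn gave 0.55 to 0.79 for Csf2, −0.12 to 0.10 for Csf3, 2.39 to 2.88 for Csf3r, 2.25 to 2.87 for S100a8 and 1.85 to 2.57 for Pglyrp1, with 3 to 4 genes called. With a replicate block of day and number the values were 0.92 for Csf2, 0.03 for Csf3, 2.03 for Csf3r, 1.92 for S100a8 and 1.88 for Pglyrp1, and 4 genes were called. That block took the call from Csf3r (1.86, adjusted p = 0.0605) and S100a8 (1.84, adjusted p = 0.12) in Fat-1 lungs, from S100a8 in WT lungs (1.99, adjusted p = 0.0741) and from Pglyrp1 on day 2 (1.21, adjusted p = 0.0653). The floor, which acts on counts and on scaled values under 20, limits Csf3, Csf2 and low saline values of Pglyrp1. Lungs saturated or in doubt were identified after the data had been seen.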
